A study of Mus musculus with 6 samples.

Results

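The chromatin around 10 genes with roles in the self-renewal of haematopoietic stem cells (HSCs) was followed in 6 ATAC-seq libraries, in which a transposase cuts accessible DNA. The genes were Hlf, Mecom, Prdm16, Mllt3, Mycn, Etv6, Gfi1, Gfi1b, Nkx2-3 and Zfp36l2. Overlapping peaks of the 6 libraries were merged into regions, and a region was taken with a gene if it lay inside the RefSeq gene span or within 100 kb of it (mouse build mm10). This gave 265 of 82993 regions in all, none of them counted under more than 1 gene. The cells were bone marrow HSCs sorted as CD48-CD150+LSK from wild-type C57BL/6J mice, about 5000 per library. Of the mice, those of 3 libraries had received DMSO, the solvent, and those of the other 3 had received tunicamycin at 2 mg/kg, both by intraperitoneal injection. Tunicamycin blocks N-linked glycosylation and so loads the endoplasmic reticulum with misfolded protein. The sources used here state neither the ages of the mice nor the time from injection to sorting. They do not say whether libraries of a group came from separate animals, so the spread between libraries may be technical.

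An HSC divides without losing its stem cell state only if a network of transcription factors, chromatin readers and RNA-binding proteins holds its programme in place. Hlf and Mecom encode transcription factors whose expression marks the most primitive cells, while Gfi1 and Gfi1b encode zinc-finger repressors that restrain division and lineage choice. Accessible sites near such genes include their promoters and distant enhancers, and many of them lie inside introns or in neighbouring genes.

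The data say whether a library called a region (a peak of that library lies in it) and how strong the peak was within its own list. Strength is given as a percentile: the region's highest fold enrichment, as the authors deposited it, ranked among all peaks of the same library, where 100 is the strongest peak. Peak lists carry no read depth, and the lack of a peak therefore cannot be read as closed chromatin. In a sorted population, fewer cells with an open site and less opening per cell cannot be told apart. The lists held 28501 to 62478 peaks, with DMSO replicate 1 the longest and DMSO replicate 3 the shortest of all 6, and both calls and percentiles move with list length. A region of middling strength stands higher in a long list, which holds more weak peaks below it. Each percentile was therefore also computed among the 20810 regions that all 6 libraries called, a list of equal length in each library, called the shared scale below.

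The sequences before 6 annotated starts are shown because results below describe them. At Hlf, Mllt3 and Etv6 the whole-list percentiles of the groups did not overlap at the start, although at each of them the groups overlapped under at least 1 other ranking. Nkx2-3 carries the same short motif as Hlf and Etv6, and Mecom has a pair of starts, each with its own calls. Each is the stretch of 250 bases before the start, 5′ to 3′ on the gene's strand, from RefSeq (GRCm38.p6, the assembly that mm10 denotes). Capitals mark TGACGT, the core of a cAMP response element, and GGGCGG, a GC box, each on either strand.
Hlf, chr11:90390918-90391167, minus strand: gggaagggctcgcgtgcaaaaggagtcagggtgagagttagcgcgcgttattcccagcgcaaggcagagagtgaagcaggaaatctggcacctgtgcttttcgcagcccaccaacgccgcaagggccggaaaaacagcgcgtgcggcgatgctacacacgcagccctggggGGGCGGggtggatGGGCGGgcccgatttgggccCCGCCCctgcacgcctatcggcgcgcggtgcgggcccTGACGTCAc
Mllt3, chr4:88033408-88033657, minus strand: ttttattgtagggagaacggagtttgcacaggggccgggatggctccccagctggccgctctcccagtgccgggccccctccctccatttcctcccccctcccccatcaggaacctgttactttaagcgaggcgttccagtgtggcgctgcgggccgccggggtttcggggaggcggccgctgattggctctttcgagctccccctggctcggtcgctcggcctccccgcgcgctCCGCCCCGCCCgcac
Etv6, chr6:134035450-134035699, plus strand: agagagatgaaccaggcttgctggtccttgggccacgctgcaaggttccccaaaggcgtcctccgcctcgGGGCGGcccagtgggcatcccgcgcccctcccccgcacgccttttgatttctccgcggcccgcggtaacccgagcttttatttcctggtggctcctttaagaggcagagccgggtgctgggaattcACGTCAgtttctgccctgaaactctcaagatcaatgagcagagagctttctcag
Nkx2-3, chr19:43612075-43612324, plus strand: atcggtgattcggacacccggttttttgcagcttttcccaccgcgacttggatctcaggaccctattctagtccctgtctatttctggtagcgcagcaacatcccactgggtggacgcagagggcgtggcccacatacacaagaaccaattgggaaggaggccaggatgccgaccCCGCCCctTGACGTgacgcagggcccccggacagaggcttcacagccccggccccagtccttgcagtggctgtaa
Mecom, first start, chr3:30509760-30510009, minus strand: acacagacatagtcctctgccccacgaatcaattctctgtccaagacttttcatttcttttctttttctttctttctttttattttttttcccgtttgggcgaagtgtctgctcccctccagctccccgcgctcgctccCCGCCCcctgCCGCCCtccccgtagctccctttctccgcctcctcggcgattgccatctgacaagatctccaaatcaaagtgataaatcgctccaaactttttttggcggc
Mecom, second start, chr3:30013205-30013454, minus strand: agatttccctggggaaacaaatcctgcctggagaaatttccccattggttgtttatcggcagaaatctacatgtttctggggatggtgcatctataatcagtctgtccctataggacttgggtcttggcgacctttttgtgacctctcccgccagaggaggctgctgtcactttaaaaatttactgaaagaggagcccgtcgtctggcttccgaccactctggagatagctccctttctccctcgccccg

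Of the 12 promoter windows that RefSeq gave for 9 of the genes (250 bases before to 50 after a start), 3 held TGACGT, against 7.51% of 32851 windows of all genes. They were those of Hlf, Etv6 and Nkx2-3, and in Hlf the match occurs on both strands of 1 palindrome that ends just before the start. The GC box stood in 8 of 12 windows and in 35.7% of all. Other short motifs searched on both strands were GGAA (ETS core, 12 of 12 windows, 96.0% of all), CANNTG (E-box, 10, 72.3%), CCAAT (6, 37.4%), TGATG (a part of the ATF4 composite site, 4, 39.3%), CCACG (a part of the ER stress element, 4, 32.8%), GATAA (GATA, 3, 25.4%), TTATNNAA (PAR bZIP, 2, 12.0%), TGTGGT (RUNX, 0, 16.8%) and TGANTCA (AP-1, 0, 7.81%). A match describes letters only and not binding.

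**Figure D1:**
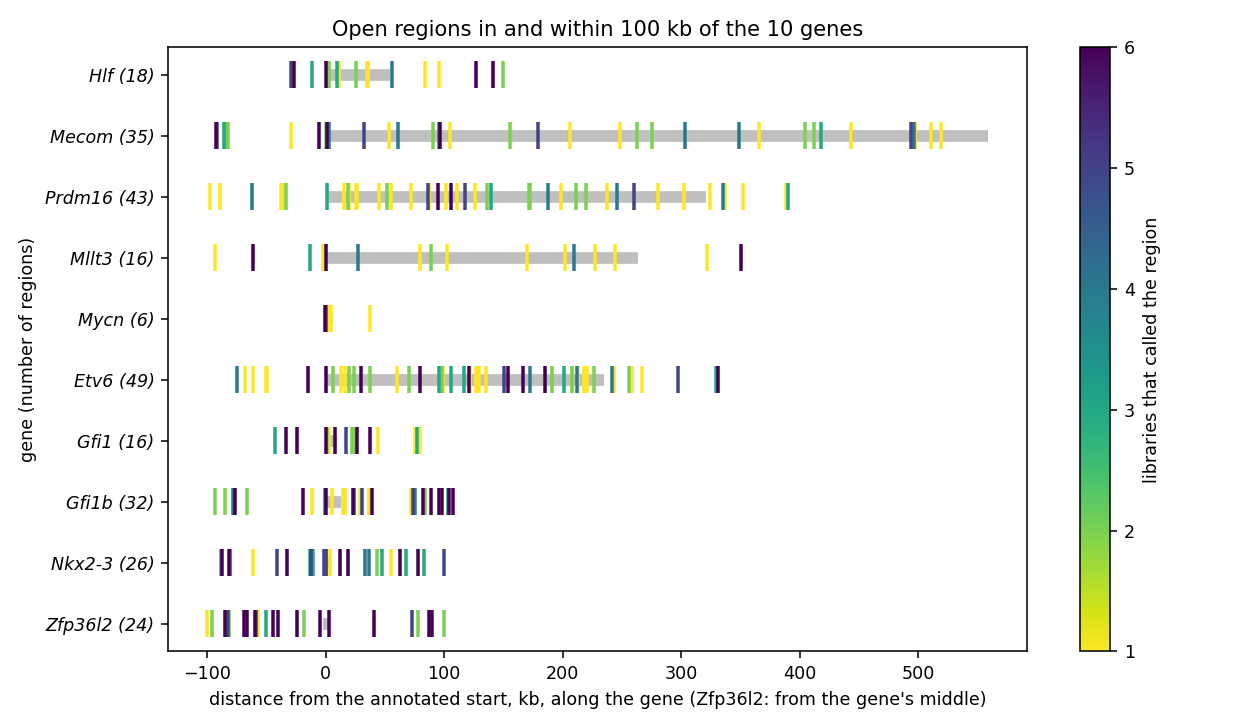
Regions in and within 100 kb of each gene, placed by distance in kb from the annotated start along the gene (for Zfp36l2 from the middle of the gene), coloured by the number of libraries that called them. Grey bars are gene bodies, and the number beside each name counts its regions. Dark marks, called in all 6 libraries, number 12 at Zfp36l2 and 11 at Gfi1b but only 2 across Prdm16.

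All 10 genes had regions that every library of both groups called, in numbers from 1 at Mycn to 12 at Zfp36l2. Of the 265 regions, 59 (22.3%) were called in all 6 libraries, against 25.1% of all 82993. The share was 13.6% for regions inside a gene or overlapping its end (17 of 125) and 30.0% for those outside (42 of 140). Of the latter, 49 overlapped another protein-coding gene in whole or in part, so that their connection to the gene of interest is one of distance alone. At 9 of the 10 genes at least 1 region called in all 6 lay in the gene body or up to 1 kb from it, Nkx2-3 being the exception, and the same held for 54.4% of all 21883 protein-coding genes. Regions called in all 6 were wider, with a median of 651 bp against 379 bp for all 265, and over the whole genome these medians were 775 and 387 bp.

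At the 4 genes longer than 200 kb, 4.65% to 18.8% of the regions were called in all 6 libraries, below the 25.1% of all regions. Etv6, which encodes an ETS-family repressor needed for adult HSCs, had 49 regions, 9 of them called in all 6 libraries. Prdm16, a histone methyltransferase family member that maintains HSCs, had 43 regions, but 2 were called in all 6 and 23 in only 1 library. Mecom, the EVI1 zinc-finger factor, had 35 regions over a window of 758 kb, with 4 in all 6. Mllt3, the AF9 reader of acylated histones in the super elongation complex, had 16, with 3 in all 6. Per 100 kb, regions called in all 6 were 0.384 at Prdm16, 0.527 at Mecom and 0.647 at Mllt3, a density that 23.4%, 30.9% and 31.7% of 21883 protein-coding genes did not exceed. Etv6 had 2.07 per 100 kb, which 61.4% of genes did not exceed.

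The short genes fell on both sides of this share of 25.1%. Zfp36l2, an RNA-binding protein that promotes decay of AU-rich mRNAs, had 24 regions with 12 called in all 6, or 5.88 per 100 kb, a density that 95.5% of genes did not exceed. Gfi1b had 32 with 11 in all 6, and Nkx2-3, a homeobox factor, 26 with 7. Gfi1 had 16 with 6. Hlf, a PAR bZIP factor, had 18 with 4. Mycn, a MYC family member, had only 6 regions, of which 1 was called in all 6, so that the share of its regions that a library called moved in large steps.

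The strongest shared regions mostly lay outside the genes. Where a neighbouring gene is named here, it was the nearest gene, and the link to the gene of interest is one of distance alone. At Nkx2-3 the strongest was 73.4 kb away and overlapped Entpd7 (chr19:43689257-43690250). Its percentiles were 98.6, 98.3 and 99.2 in DMSO replicates 1 to 3 and 95.9, 98.1 and 97.5 in tunicamycin replicates 1 to 3. At Hlf it was 86.5 kb beyond the 3′ end and overlapped Mmd (chr11:90248994-90250053). It stood at 97.4, 97.7 and 97.4 after DMSO and 96.2, 95.8 and 98.0 after tunicamycin. This region, nearest to Mmd and not to Hlf, was thus among the strongest 5% of peaks in every library of both groups. At Mllt3 the strongest was 61.1 kb before the start and overlapped Focad (chr4:88093731-88095351), with a mean percentile of 96.3. That at Gfi1 was 33.6 kb before the start, inside Evi5 (chr5:107759006-107759793), with 95.5. The strongest at Gfi1b was 19.2 kb before the start and overlapped Tsc1 (88.4), and that at Zfp36l2 was 21.9 kb outside the gene (84.4). That at Mecom was 92.7 kb before the first start and overlapped Mynn (79.9). Within the gene itself the highest lay at Etv6 184.8 kb (80.05) and at Prdm16 95.03 kb (74.6) downstream of the start. At Mycn the only region called in all 6 lay 0.78 kb before the start and had a mean percentile of 39.7.

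The regions at the starts were next compared between treatments. At Hlf the start region (chr11:90390661-90391159) stood at percentiles 63.9, 66.0 and 68.3 in DMSO replicates 1 to 3 and at 72.4, 74.7 and 76.3 in tunicamycin replicates 1 to 3. The groups did not overlap, and the means were 66.1 ± 2.22 (SD, n = 3) and 74.5 ± 1.98 (SD, n = 3), a difference of 8.39 points. Of all 20810 shared regions, 69.9% had a lower difference, so this one was not unusual in size. On the shared scale the groups overlapped, at 24.6, 43.0 and 57.3 after DMSO and 45.5, 41.5 and 50.3 after tunicamycin. They also overlapped when ranked by −log10 q and in lists of equal length, with differences of 7.24 and 6.90 points.

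At Mllt3 the start region (chr4:88032905-88033617) stood higher after tunicamycin on both scales. It stood at 77.0, 53.0 and 41.6 after DMSO and at 79.1, 83.1 and 80.5 after tunicamycin, means of 57.2 ± 18.1 (SD, n = 3) and 80.9 ± 2.04 (SD, n = 3). The tunicamycin values lay close together, whereas DMSO replicate 1 came close to the lowest of them. On the shared scale the values were 44.0, 28.4 and 27.5 after DMSO and 57.0, 57.7 and 58.0 after tunicamycin, a difference of 24.3 points that exceeded 98.2% of the differences at all 20810 shared regions. Ranked by −log10 q in place of fold, the difference was 18.7 points and the groups overlapped.

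At Etv6 the start region (chr6:134034796-134036306) went the other way. Its percentiles were 67.4, 56.1 and 53.6 after DMSO and 51.0, 43.4 and 50.5 after tunicamycin, with means of 59.05 ± 7.32 (SD, n = 3) and 48.3 ± 4.24 (SD, n = 3). On the shared scale it stood at 28.9, 31.2 and 39.6 after DMSO and 20.3, 9.5 and 18.3 after tunicamycin, again without overlap, and only 4.48% of shared regions had a lower difference than its −17.2 points. Ranked by −log10 q the groups overlapped and the difference shrank to −0.70 points, and they also overlapped when weaker peaks (q above 1e-05) were dropped, at −12.3 points.

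The 2 other start regions called in all 6 libraries did not separate the groups. The Gfi1 start region (chr5:107725264-107726457) had means of 43.1 ± 6.42 and 43.4 ± 10.7 (SD, n = 3 each) after DMSO and tunicamycin. That of Gfi1b (chr2:28621717-28622214) had means of 57.8 ± 14.9 and 64.5 ± 17.9 (SD, n = 3 each). The starts of Mycn and Nkx2-3 were called in 5 libraries each, DMSO replicate 3 being the exception at both. Mecom encodes a long form, from the first start, and EVI1, from the second. No region overlapped the window at its first start. The nearest lay 221 bp from the start and was called in DMSO replicate 2 and tunicamycin replicate 3, and regions 1.25 kb downstream and 5.42 kb upstream were called in all 6 libraries. The second start (chr3:30012952-30013338) was called in DMSO replicate 1 at percentile 42.2 and in tunicamycin replicates 1, 2 and 3 at 14.9, 25.1 and 13.0. No region overlapped the Prdm16 start window, the nearest being 495 bp from the start and called in 3 libraries.

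**Figure D2:**
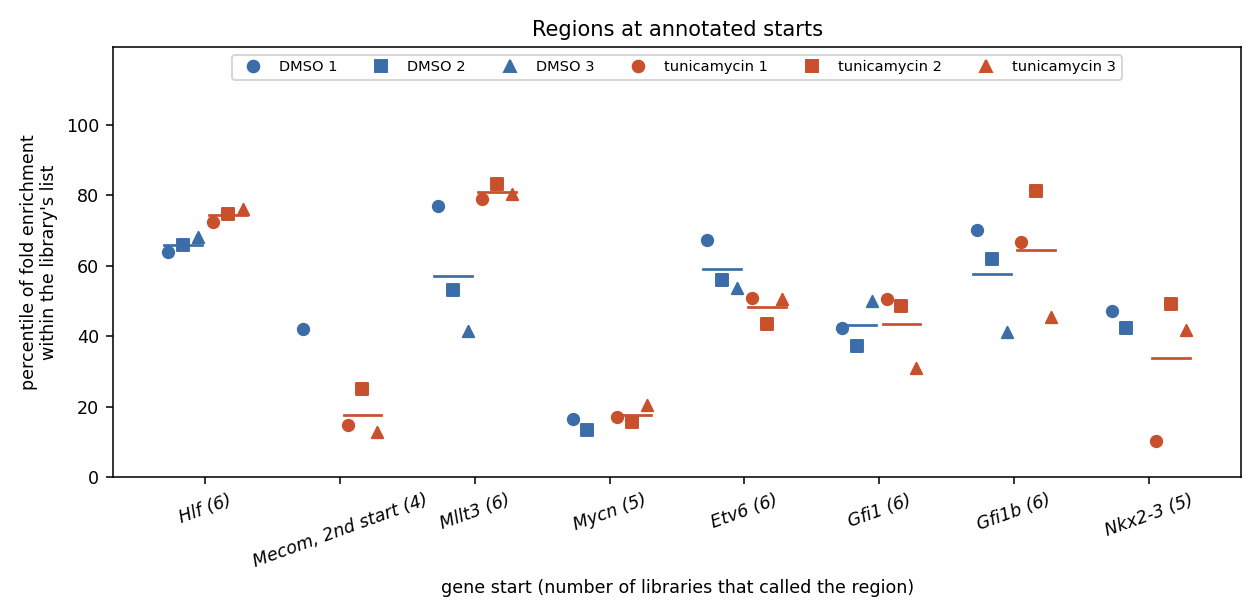
Percentile of fold enrichment within each library's list, for the region at each annotated start that at least 4 libraries called. Points are libraries, bars are means of 3 libraries, and a group with a missing call has no bar. Tunicamycin libraries sit at 72.4 to 76.3 at Hlf above 63.9 to 68.3 for DMSO, at 79.1 to 83.1 at Mllt3 above 41.6 to 77.0, and at 43.4 to 51.0 at Etv6 below 53.6 to 67.4.

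Over the 59 shared regions, 9 had every tunicamycin percentile above every DMSO percentile and 3 had every one below. Among all 20810 shared regions 7.42% were above and 1.59% below, so the lists as a whole lean the same way. On the shared scale, where each library ranks the same 20810 regions, 4 of 59 were above and 4 below, against 4.66% and 4.55% of all shared regions. The median difference over the 59 was 6.95 points (all shared regions 3.61) within the whole lists and 1.71 points (all −0.30) on the shared scale, with 31 of 59 positive on the latter. By library, the median percentile of the 59 on the shared scale was 32.4, 35.9 and 32.1 after DMSO and 44.6, 40.6 and 38.7 after tunicamycin. These medians, each taken within its own library, did not overlap between groups, and their group means differed by 7.80 points, far more than the median difference of single regions. Within the whole lists the medians of the 59 differed by 12.6 points between group means, and those of all shared regions by 5.58 points. Without DMSO replicate 3, the shortest list, the difference for these genes was 1.60 points, taken over 79 regions, those called in all remaining libraries. The matching value over all shared regions is not given here, so whether it fell alike cannot be told. Leaving out a library eases the criterion and raises the background, and it can change the set of shared regions. Without DMSO replicate 1, 22 of 59 regions were above (30.6% of all shared regions). Without tunicamycin replicate 3, 16 of 60 were above (13.3%) and 5 below (2.93%). Without DMSO replicate 3, 9 of 79 were below (7.46%).

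Of the 9 regions above, 2 stayed so with lists of equal length, 2 with calls that cover 50% of a region, 3 on the shared scale and 6 by −log10 q. With weaker peaks (q above 1e-05) dropped 8 stayed so, and 8 did with peaks replaced by windows of 250 bp either side of their summits. Of the 3 below, 2, 2, 2, 0, 2 and 3 did, in the same order.

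**Figure D3:**
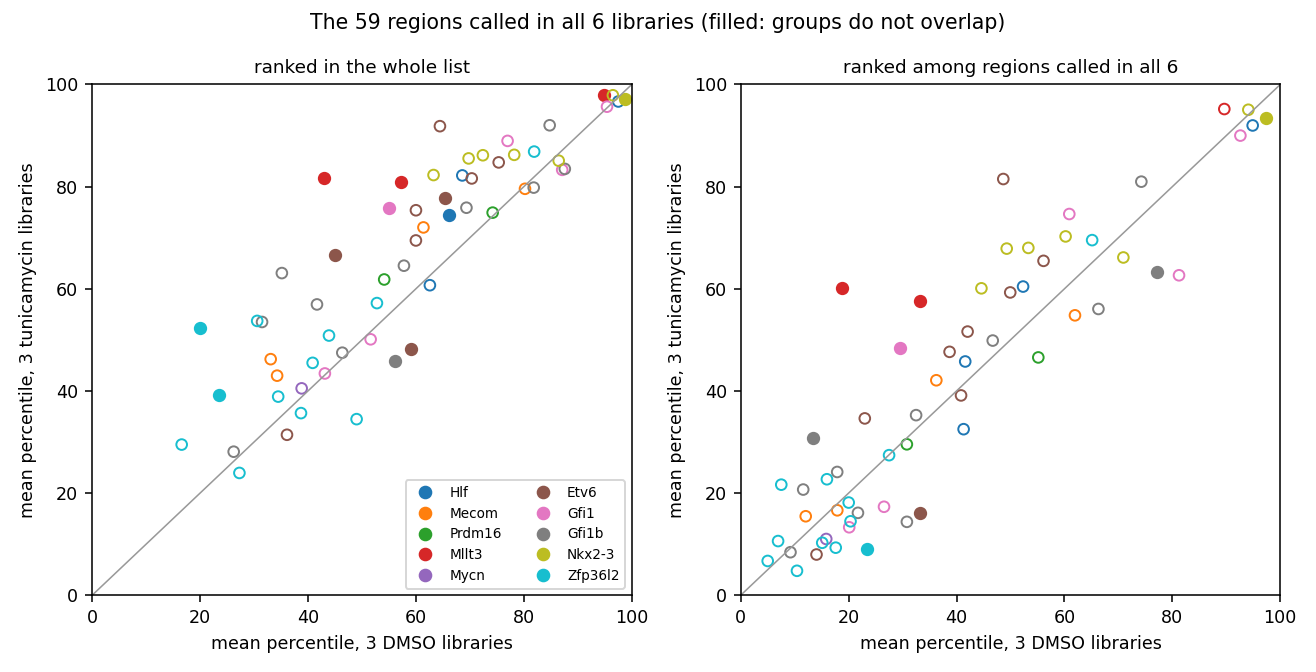
Mean percentile in the 3 tunicamycin libraries against that in the 3 DMSO libraries for each of the 59 regions called in all 6, ranked in the whole list (left) and among regions called in all 6 (right). Filled points are regions whose groups do not overlap. On the left 9 filled points lie above the line and 3 below, and on the right 4 lie on each side.

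Mllt3 held the region with the largest difference of the 59. It lies 86.6 kb beyond the gene's 3′ end, with Mllt3 the nearest gene (chr4:87682742-87683305), and stood at 55.3, 33.8 and 39.6 after DMSO and 71.8, 86.0 and 87.3 after tunicamycin. The means were 42.9 ± 11.1 and 81.7 ± 8.60 (SD, n = 3 each). Of all shared regions 99.8% had a smaller difference, and 99.9% did on the shared scale, where it was 41.4 points. With lists cut to the length of the shortest, the region was called in all 3 tunicamycin libraries and 1 DMSO library. All 3 shared regions of Mllt3 stood higher in each tunicamycin library within the whole lists. The strong region overlapping Focad did so by only 3.15 points, and its groups overlapped on the shared scale.

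Gfi1 had 1 such region of its 6, inside the gene 7.72 kb downstream of the start (chr5:107717774-107718403). It stood at 68.0, 57.4 and 39.6 after DMSO and 72.7, 81.1 and 73.7 after tunicamycin, and the groups were also apart on the shared scale, by 19.01 points. When a call had to cover 50% of the region, 1 DMSO library lost it, and the region was no longer shared. Etv6 had 2 inside the gene, 120.7 and 154.2 kb downstream of the start, with differences of 21.7 and 12.4 points (chr6:134156092-134156641 and chr6:134189617-134190188). Zfp36l2 had 2, at 41.6 and 84.7 kb from the gene, with differences of 15.7 and 32.3 points, the farther of them overlapping Thada. At these 4 regions of Etv6 and Zfp36l2 the groups overlapped on the shared scale.

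Beside the Etv6 start, regions lower after tunicamycin were 1 near Gfi1b and 1 near Nkx2-3. The former, 91.6 kb away and overlapping Ralgds (chr2:28517275-28517887), had means of 56.2 ± 3.08 after DMSO and 45.8 ± 6.00 after tunicamycin (SD, n = 3 each). On the shared scale its groups overlapped. The latter, the strong region overlapping Entpd7, differed by only −1.57 points. On the shared scale alone, a region 76.7 kb before the Gfi1b start (chr2:28698429-28698960) was higher in each tunicamycin library by 17.3 points. Lower on that scale alone were a region overlapping Ralgds, 81.9 kb downstream of the Gfi1b start, by −14.0 points, and a region 82.9 kb from Zfp36l2, by −14.3 points.

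Calls that separated the groups were few. Of the 265 regions, 2 were called in 3 of 3 tunicamycin and 0 of 3 DMSO libraries, or 0.755% against 0.683% of all regions. None was called in 3 of 3 DMSO and 0 of 3 tunicamycin libraries, where the share of all regions was 0.0976%. The first of the 2 lies inside Etv6 (chr6:134141348-134141647), with percentiles of 2.48, 40.5 and 45.8 and fold enrichments of 3.16, 4.98 and 5.37 in tunicamycin replicates 1, 2 and 3. The other lies inside Entpd7, 79.5 kb from Nkx2-3 (chr19:43695394-43695786), with percentiles of 38.3, 47.2 and 54.2. Once weaker peaks (q above 1e-05) were dropped the latter alone stayed separated, and with lists of equal length neither did, each then being called in 1 tunicamycin library. When DMSO replicate 1 was left out 10 regions met the tunicamycin criterion (5.77% of all regions). Without tunicamycin replicate 1, 2 or 3, 4 regions met it each time, beside 2.23%, 1.19% and 1.54% of all regions. The DMSO criterion was met by 5 regions without DMSO replicate 3 (0.929% of all regions) and 2 without DMSO replicate 1 (0.561%). It was met by 1 region without DMSO replicate 2 (0.343%) and 1 without tunicamycin replicate 3 (0.156%).

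Mecom showed a related pattern inside the gene. Of its 35 regions, 5 (all inside the gene, the second start among them) had a peak in each tunicamycin library, and among the DMSO libraries in replicate 1 alone, which has the longest list. Among all regions 4.39% had this pattern, and among the other 230 regions of these genes 2 did, at Mllt3 and Prdm16. In numbers of calls, Mecom had 28, 13 and 7 regions in DMSO replicates 1, 2 and 3 and 18, 21 and 15 in tunicamycin replicates 1, 2 and 3. The tunicamycin counts fall within the range of the DMSO counts, DMSO replicate 1 standing above and the other two DMSO libraries below all 3 of them.

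The share of the 265 regions that a library called was 74.3%, 48.7% and 29.1% in DMSO replicates 1, 2 and 3 and 50.6%, 55.5% and 50.6% in tunicamycin replicates 1, 2 and 3. Over all regions the same libraries called 73.6%, 44.5% and 33.3%, then 52.6%, 67.2% and 55.7%. The excess, the first minus the second, was 0.72, 4.13 and −4.23 points after DMSO and −2.07, −11.8 and −5.10 points after tunicamycin. Means were 0.21 ± 4.21 and −6.31 ± 4.95 points (SD, n = 3 each), and the groups overlapped, since DMSO replicate 3 stood below tunicamycin replicate 1. The lowest value was that of tunicamycin replicate 2. The mean difference of −6.51 points held its sign when any 1 library was left out (−8.93 to −4.17).

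**Figure D4:**
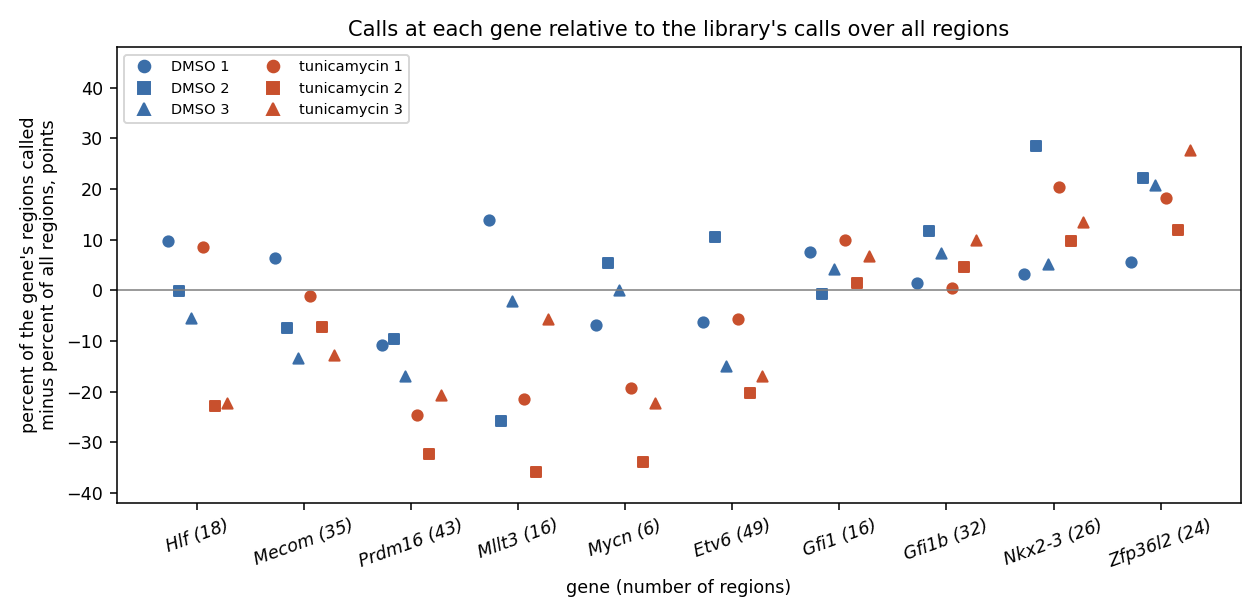
Percent of each gene's regions that a library called, minus the percent of all regions that it called, in points. At Prdm16 and Mycn every tunicamycin library lies below every DMSO library, and at Zfp36l2 and Nkx2-3 all 6 libraries lie above 0.

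Gene by gene, the excess of every tunicamycin library lay below that of every DMSO library at Prdm16 and Mycn. None of the 10 genes showed the reverse. Over 17010 genes with at least 5 regions, 6.01% were of the first kind and 5.40% of the second. At Prdm16 the excess was −10.8, −9.67 and −17.0 points after DMSO and −24.7, −32.3 and −20.8 after tunicamycin. In numbers of its 43 regions, Prdm16 had 27, 15 and 7 called after DMSO and 12, 15 and 15 after tunicamycin, so that the separation lies in the excess and not in the counts. At Mycn, 4, 3 and 2 of 6 regions were called after DMSO and 2, 2 and 2 after tunicamycin. Differences in mean excess at the remaining genes ran from −16.4 points at Mllt3 to 3.09 at Zfp36l2, and all of these overlapped between groups. At Zfp36l2 the excess was 5.55 to 22.1 points after DMSO and 11.9 to 27.7 after tunicamycin, and at Nkx2-3 3.31 to 28.5 and 9.70 to 20.4.

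The wider set of HSC regulators and markers of other cell types give the setting. Around 47 other HSC regulators, such as Meis1, Runx1, Gata2 and Bmi1, 951 regions were found, of which 24.9% were called in all 6 libraries (25.1% of all regions). Of the 951, 6 were called in the tunicamycin libraries only (0.683% of all regions) and 0 in the DMSO libraries only (0.0976%). Their excess was −0.06 to 4.20 points after DMSO and −0.56 to 0.49 after tunicamycin, a difference of −1.64 points between group means, with overlapping groups. Whether it differs from that of the 10 genes was not tested. A region called in all 6 lay in or within 1 kb of 37 of the 47, beside 54.4% of all 21883 protein-coding genes. The same held for 1 of 12 neutrophil and monocyte markers, 6 of 12 erythroid, 7 of 10 megakaryocyte, 5 of 14 lymphoid and 5 of 10 stromal and endothelial markers. Regions around the 14 lymphoid markers had an excess of −0.23 to 0.61 points after DMSO and 6.64 to 8.05 after tunicamycin, without overlap. Of the 248 lymphoid regions, 4 were tunicamycin-only (0.683% of all regions), and the other marker lists held 0 or 1 each. Of the 67 lymphoid regions called in all 6, 0 stood above and 5 below on the shared scale (all shared regions 4.66% and 4.55%). These counts were 5 and 0 of 58 for megakaryocyte markers and 3 and 0 of 53 for neutrophil and monocyte markers. For erythroid markers they were 4 and 3 of 73, and for stromal and endothelial markers 4 and 2 of 38. Around the other 4 marker lists the excess differed by −1.80 to −0.81 points between group means. Whether the difference in excess at lymphoid genes has a part in the values of the 10 genes was not tested.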

How the data were processed

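ATAC-seq peak lists of 3 DMSO and 3 tunicamycin libraries were used, grouped by the labels' treatment field. The submitters' processing notes name the build mm10 and MACS2, Bowtie2 2.2.9, Trim Galore 0.4.4, featureCounts and Picard, without their roles. Read filters, any shift of read ends and the threshold for peaks are unstated in the sources used here. Each library has its own list, so peaks were not called on pooled samples. For each peak the authors deposited a −log10 p-value, a −log10 q-value, the fold enrichment as a ratio, and a display score that was not used. Peaks on other sequences than the main chromosomes, and any repeat entry of the same interval, were left out (109 to 138 per library in all). The rest were merged into regions wherever they shared 1 bp or more. A region's value is its highest fold in that library. Lists of equal length kept each library's peaks with the highest −log10 q. Genes and distances came from 21883 protein-coding RefSeq genes (GRCm38.p6), starts from a RefSeq promoter table, which gave no entry for Zfp36l2.

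The genes and lists were chosen with earlier results of these data known, so groups are compared by values, counts and overlap beside the same over all regions, and no p-value is given: with 3 libraries against 3, a two-sided exact permutation test cannot go below 0.10. Named regions are those separating the groups by calls or percentile, those at starts, and the strongest shared region of each gene. Regions apart only on the shared scale, and the Mecom pattern, were named after their values were seen. The replicate numbers were checked for pairing: deviations of same-numbered libraries over 20810 regions correlated at −0.10, −0.02 and 0.02, so they were not treated as pairs. Merging and percentiles were tested on simulated data. Python 3.11.15, NumPy 2.4.6, pandas 2.3.3 and matplotlib 3.10.9 were used.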

Additional observations from a re-analysis of the deposited data

How the results depend on the processing

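Read depth is unknown, so what a list could miss is not known either. With lists of equal length the difference in percent called turned to −2.86 points (1.51 with whole lists). Of 128 regions, 0 were tunicamycin-only (0.790% of all regions), and of 52 shared regions 4 stood above (4.38% of all shared regions). Within 50 kb in place of 100 kb the difference was −0.34 points over 194 regions. Of these, 1 was tunicamycin-only (0.683% of all regions), 36 were called in all 6 libraries (25.1%) and 1 stood below (1.59% of all shared regions). Taking only the 181 regions nearest to 1 of these genes, these counts were 1, 34 and 1, beside the same shares. Peaks of q at most 1e-05 left 1 tunicamycin-only region of 200 (0.722% of all regions). Calls that cover 50% of a region left 32 of 265 in all 6 (14.7% of all regions), with 2 of them above (7.39% of all shared regions). On the shared scale 4 of 59 stood above (4.66% of all shared regions), and by −log10 q 0 stood below (0.759%). Leaving out each library gave differences in percent called of −9.52 to 16.0 points, negative without DMSO replicate 3 (−9.52) and without tunicamycin replicate 2 (−0.13). There were then 2 to 10 tunicamycin-only regions (0.821% to 5.77% of all regions) and 0 to 5 DMSO-only regions (0.156% to 0.929%). All remaining libraries called 59 to 79 regions (26.2% to 34.3% of all), with a median percentile difference of 1.60 to 18.2 points. Of these shared regions 11 to 22 stood above (9.54% to 30.6% of all shared regions) and 3 to 9 below (2.93% to 7.46%). The excess kept its sign under each alternative run, from −8.93 to −3.28 points. It was −6.01 points over regions called in at least 2 libraries, an alternative added after seeing the data. Treating same-numbered libraries as pairs (the replicate block) cannot change the differences of 1.51, −6.51 and 12.6 points. A difference of group means is the same with or without pairs, so this setting does not test them.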
